A study of Mus musculus with 12 samples.

Results

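Acvrl1 and Acvr1b are mouse genes for type I receptors of the TGF-β family, better known as ALK1 and ALK4. They were taken by their symbols, with earlier results of these data known, and are 2 of the 99 genes analysed here. Both were followed in all 12 libraries, together with the ratio of Acvrl1 to Acvr1b within each library. The libraries come from 4 cell types with 3 independent cultures each. Fibs were skin fibroblasts from the ears of female C57BL/6 mice, and iPSCs were made from such fibroblasts with Sendai virus carrying the Yamanaka factors and were grown on a feeder layer. The iMSCs were derived from the iPSCs through embryoid bodies. Several induction media were tried, among them TGF-β1 at 10 ng/ml together with bFGF at 5 ng/ml. The study's discussion describes its iMSCs as generated with both TGF-β and bFGF. Its methods do not name the arm of the sequenced iMSCs, which were taken here as given these doses. The factors were part of the induction medium only, and the cells were then moved to medium with serum and passaged. BMSCs came from femoral bone marrow. The labels give the genotype of Fibs and BMSCs as WT and that of iPSCs and iMSCs as Reprogramming, and no arm induced without the factors was labelled as such.

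A TGF-β family ligand brings together type II and type I receptors at the cell surface. The type II receptor phosphorylates the type I receptor, whose kinase then phosphorylates Smad proteins that enter the nucleus. ALK4 is the activin and Nodal receptor and signals through Smad2 and Smad3, the branch that pluripotent and early embryonic cells use. ALK1 is a receptor for BMP9 and BMP10, signals through Smad1 and Smad5, and is best known from blood vessel endothelium, where in humans its loss causes hereditary haemorrhagic telangiectasia.

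The receptors lie side by side on the plus strand of chromosome 15, at coordinates that equal those of GENCODE M21 on GRCm38. Acvrl1 (ENSMUSG00000000530) spans positions 101128522 to 101145336, and Acvr1b (ENSMUSG00000000532) spans 101174067 to 101213684. The 28730 bases between them hold no other protein-coding gene in that annotation. The table lists 11 transcripts for Acvrl1 and a single one, of 4418 bases in 9 exons, for Acvr1b. In the pathway annotation of the table, both genes carry the KEGG term for cytokine-cytokine receptor interaction, and Acvr1b also carries those for TGF-β signalling and for the control of pluripotency.

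Reads of related receptors can be confused where their sequences are the same. The longest run of identical bases in the coding sequences of Acvrl1 and Acvr1b was 15 bases, and it is shown in capitals within 60 bases of each coding sequence, read from GENCODE M21 transcripts, to show how far the neighbours have diverged.
Acvrl1: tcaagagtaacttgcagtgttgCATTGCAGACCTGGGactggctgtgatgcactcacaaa
Acvr1b: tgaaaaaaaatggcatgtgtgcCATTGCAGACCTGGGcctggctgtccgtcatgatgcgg
The Acvrl1 stretch is bases 1010 to 1069 of its coding sequence, from position 101137604 in exon 8 to 101138231 in exon 9 (GRCm38, plus strand). The Acvr1b stretch is bases 1028 to 1087, at positions 101202986 to 101203045 within exon 6. In these windows 35 of 60 bases were identical. Over whole transcripts, no run shared with any of the other type I receptors (Acvr1, Bmpr1a, Tgfbr1, Bmpr1b and Acvr1c) was longer than 18 bases, for either gene. Of the 31-base windows of the longest Acvrl1 transcript, 0 of 3610 occurred in a transcript of another gene on either strand. For Acvr1b, 8 of 4388 did (0.182%), and 0 of these lay in the coding sequence. The span of the antisense gene Gm16031 overlaps that of Acvrl1, and the sources used here do not say whether counting took the strand into account. Gm16031 held none of the windows of the longest Acvrl1 transcript, and the shorter Acvrl1 transcripts were not searched. Whether reads of Gm16031 were counted for Acvrl1 was not tested.

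Promoter sequence was matched for 1 of the 2 receptors in the RefSeq table (GRCm38.p6). The 245 bases before the start of Acvr1b, chr15:101173822-101174066 on the plus strand, are shown because Acvr1b was read in every cell type. Capitals mark matches to the GC box (GGGCGG) and to the E-box (CACGTG), on either strand.
Acvr1b promoter: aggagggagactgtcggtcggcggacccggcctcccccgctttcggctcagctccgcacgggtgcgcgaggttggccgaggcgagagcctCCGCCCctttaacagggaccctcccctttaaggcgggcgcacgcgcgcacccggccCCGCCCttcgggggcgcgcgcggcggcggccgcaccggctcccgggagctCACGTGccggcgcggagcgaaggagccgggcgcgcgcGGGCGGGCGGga
The stretch is 78.8% G and C, higher than in 98.2% of the 32851 promoter stretches of that length. It holds 42 CpG dinucleotides, 1.11 times the number its base composition gives. It has 4 matches to the GC box, of which a pair overlaps, and 32.1% of all promoter stretches have at least 1. The E-box was matched once, and 5.85% of promoters have at least 1 match. The palindromic Smad box (GTCTAGAC), the TATA box (TATAAA) and the CCAAT box (CCAAT) had 0 matches here. At least 1 match to them occurs in 0.167%, 12.2% and 33.5% of promoters, in that order. These are matches of letters and not measured binding.

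Levels are given as FPKM, fragment numbers corrected for how long a transcript is and how deeply a library was read, so that the receptors can be set side by side. The library totals implied by the table were 66114058 to 77355820 counts, and the receptors took 506 to 12373 counts per library. Since low counts came in steps of 4, each count was divided by 4 to give the counting intervals, which leave out every error but that of counting. One culture stood apart from its group. The second iMSC library differed from the other iMSC libraries by a chi-square of 143 to 159 per degree of freedom over the table, against 3.71 to 11.5 for other pairs of replicates. The iMSC results of the receptors, of their ratio and of the pathway genes are therefore also given without it. The p-values measure the spread between these cultures, and in bulk RNA fewer cells of a type and less RNA per cell cannot be told apart.

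Acvrl1 was highest in Fibs and lowest in iPSCs. In Fibs its level was 17.1, 15.7 and 28.1 FPKM, a mean of 20.3 ± 6.81 (SD, n = 3). The third culture was far above the other two. In iPSCs it was 2.03, 1.59 and 1.68 FPKM, a mean of 1.77 ± 0.233 (SD, n = 3). All iPSC libraries lay below all others, and the lowest of them had a counting interval of 1.33 to 1.89 FPKM. In iMSCs it was 10.9, 7.53 and 11.8 FPKM, a mean of 10.1 ± 2.24 (SD, n = 3), or 11.3 without the second library. In BMSCs it was 5.39, 7.27 and 6.76 FPKM, a mean of 6.47 ± 0.971 (SD, n = 3). The order was thus Fibs, iMSCs, BMSCs, iPSCs, and no library of one cell type overlapped with those of the next. How many other genes keep the cell types apart like this was not counted. In the edgeR tests of pairs of cell types below, 17.1% to 87.1% of 70 genes were called. The gap between iMSCs and BMSCs was small, 7.53 against 7.27 FPKM for the nearest libraries. Among the 99 genes, Acvrl1 ranked 13th to 19th in Fibs, 22nd to 31st in iMSCs, 36th to 39th in BMSCs and 59th to 63rd in iPSCs.

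Acvr1b was high in Fibs and close to equal in the other cell types. In Fibs it was at 37.6, 38.5 and 39.9 FPKM, a mean of 38.7 ± 1.19 (SD, n = 3). In iPSCs it was at 15.1, 16.8 and 15.9 FPKM, a mean of 16.0 ± 0.855 (SD, n = 3). The iPSC libraries lay far below those of Fibs. In iMSCs it was at 20.9, 13.8 and 19.9 FPKM, a mean of 18.2 ± 3.85 (SD, n = 3), or 20.4 without the second library. In BMSCs it was at 15.5, 15.3 and 16.2 FPKM, a mean of 15.6 ± 0.465 (SD, n = 3). The second iMSC library was the lowest of all 12, and the other two iMSC libraries were above every iPSC and BMSC library. The iPSC and BMSC values overlapped. In FPKM, Acvr1b was above Acvrl1 in 12 of 12 libraries, an order that rests on the transcript lengths described below. Its rank among the 99 genes was 8th or 9th in Fibs, 14th in iMSCs, 17th in BMSCs and 19th to 21st in iPSCs.

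**Figure D1:**
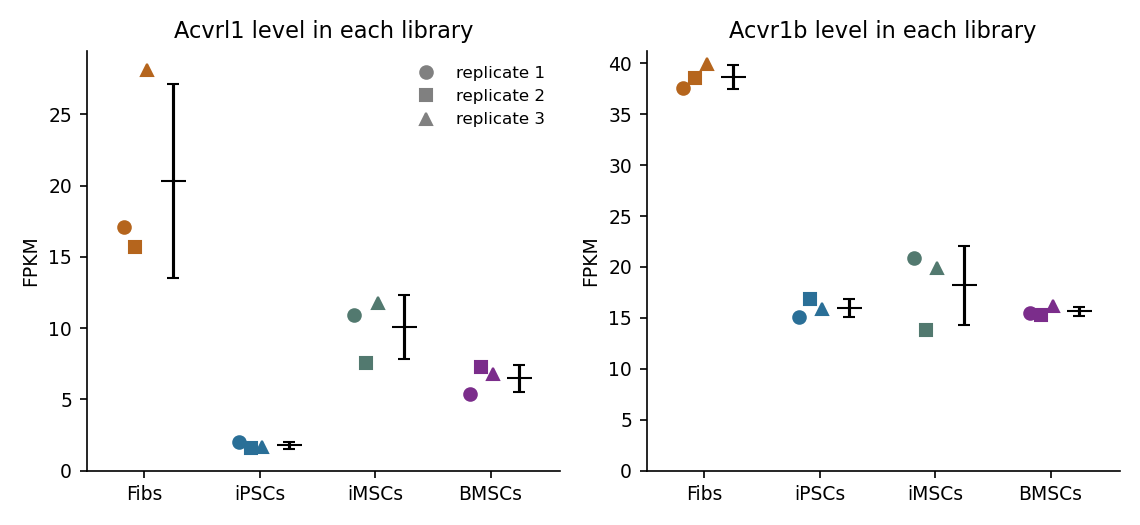
Level of Acvrl1 (left) and Acvr1b (right) in FPKM for each of the 12 libraries, with the mean and SD of the 3 cultures beside the points. For Acvrl1 the 4 cell types do not overlap and the iPSCs are lowest, at 1.59 to 2.03 FPKM, while for Acvr1b the Fibs stand at 37.6 to 39.9 FPKM and every other library lies between 13.8 and 20.9 FPKM. How many other genes are free of such overlap was not counted.

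Over all 4 cell types, both receptors varied more between cell types than between cultures. An exact permutation test of the F ratio of log2 FPKM, over all 369600 ways to place 12 libraries in 4 groups of 3, gave F = 62.7 and p = 6.49e-05 for Acvrl1. This is the smallest p that the test can give. For Acvr1b the same exact test gave F = 39.5 and p = 0.00805. Without the second iMSC library, the exact p was 0.00013 for Acvrl1 and 0.000455 for Acvr1b. The other genes were not put through this test, so how common such a result is among them is not known. In the tests of pairs of cell types below, 17.1% to 87.1% of 70 genes were called.

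The ratio of the receptors within a library does not depend on how libraries are scaled to each other. In Fibs, Acvrl1 stood at 0.456, 0.406 and 0.704 of the Acvr1b level, a mean ratio of 0.522 ± 0.160 (SD, n = 3). In iPSCs the ratios were 0.134, 0.0944 and 0.106, a mean of 0.112 ± 0.0205 (SD, n = 3). In iMSCs they were 0.524, 0.546 and 0.589, a mean of 0.553 ± 0.0331 (SD, n = 3), or 0.557 without the second library. In BMSCs they were 0.348, 0.477 and 0.418, a mean of 0.414 ± 0.0645 (SD, n = 3). The iPSC libraries were thus set apart by a low ratio, and the 9 libraries of the other cell types were all at 0.348 or more. Of the summed FPKM of the pair, Acvrl1 made up 10.0% ± 1.65 in iPSCs, 29.2% ± 3.25 in BMSCs, 33.8% ± 6.60 in Fibs and 35.6% ± 1.37 in iMSCs (SD, n = 3 each). The second iMSC library, low in both receptors, had a ratio between those of the other two iMSC libraries. The third Fib library, high in Acvrl1 and not in Acvr1b, had the highest ratio of all 12.

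**Figure D2:**
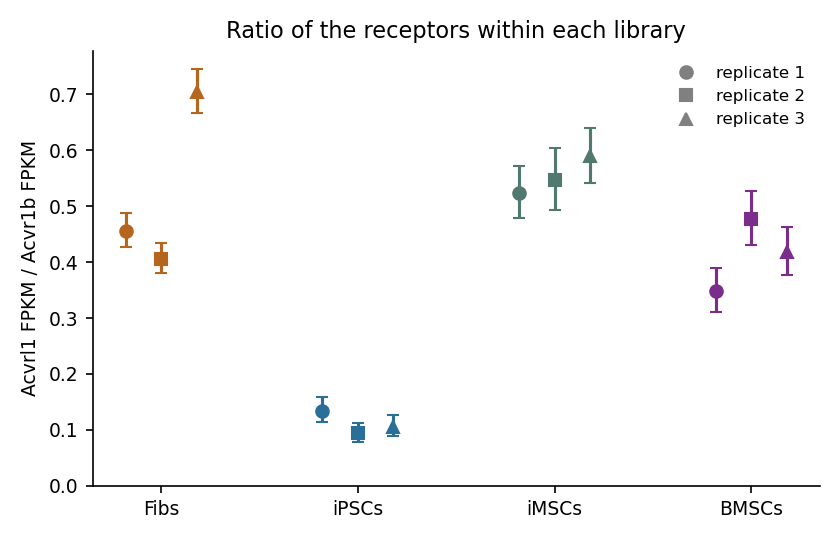
Ratio of the FPKM of Acvrl1 to that of Acvr1b in each library, with its 95% counting interval, which covers counting error only. The iPSC libraries are at 0.0944 to 0.134, below the 9 others, and the third Fib library is highest, at 0.704.

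The absolute size of this ratio, and with it which receptor is the higher in FPKM, rests on the transcript lengths behind the FPKM values. The average transcript length implied for Acvrl1 was 4268 to 4282 bases in the 12 libraries, longer than the longest of its GENCODE M21 transcripts (3640 bases). For Acvr1b it was 4418 bases throughout, the length of its annotated transcript. The implied lengths were nearly the same in every library, so that the order of the libraries does not rest on them.

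The ratio differed across the 4 cell types (exact permutation test of the F ratio of the log2 ratio, F = 46.9, p = 0.00455). Without the second iMSC library the exact p was 0.00623. Pairs of cell types were compared with a two-sided exact permutation test on the log2 ratio, over 6 pairs, where 3 libraries against 3 cannot give a p below 0.1. The ratio was 5.01 times as high in iMSCs as in iPSCs, a log2 difference of 2.32, and 3.73 times as high in BMSCs as in iPSCs, a log2 difference of 1.897. It was 4.60 times as high in Fibs as in iPSCs, a log2 difference of -2.20 for iPSCs against Fibs. In each of these 3 pairs the libraries did not overlap, and the exact p was 0.1, the smallest possible (0.15 after Benjamini-Hochberg adjustment). The ratio in iMSCs was 1.35 times that in BMSCs, also without overlap, with a log2 difference of 0.43 (exact p = 0.1, adjusted 0.15). Fibs overlapped with both iMSCs and BMSCs. The log2 difference was 0.12 for iMSCs against Fibs (exact p = 0.6, adjusted 0.6) and -0.30 for BMSCs against Fibs (exact p = 0.5, adjusted 0.6). Without the second iMSC library, the log2 difference of iMSCs was 2.333 against iPSCs, 0.132 against Fibs and 0.4358 against BMSCs (exact p = 0.1, 0.8 and 0.2).

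Each receptor was then tested between cell types with edgeR's quasi-likelihood test on the counts, and a call was an adjusted p under 0.05 over 70 tested genes. The comparisons share libraries, so they are not independent of each other.

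The step from Fibs to iPSCs is reprogramming. Both receptors fell, in a comparison that called 61 of 70 genes (87.1%). Acvrl1 fell by 3.52 on the log2 scale (SE 0.25, edgeR adjusted p = 7.69e-06), and the mean was 11.5 times as high in Fibs as in iPSCs. Acvr1b fell by 1.28 (SE 0.05, edgeR adjusted p = 3.87e-07), where the Fib mean was 2.42 times as high. The median change of the 70 genes was 0.57, in the other direction. Acvrl1 was 16th and Acvr1b 34th of the 70 genes by the size of the change.

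The step from iPSCs to iMSCs is the induction. Of the receptors 1 of 2 passed, in a comparison that called 53 of 70 genes (75.7%). Acvrl1 rose by 2.51 on the log2 scale (SE 0.22, edgeR adjusted p = 0.000124), or 5.70 times in mean FPKM, against a median change of -0.29. Acvr1b had a log2 fold change of 0.19 (SE 0.18, 95% interval -0.24 to 0.62, edgeR adjusted p = 0.375). The value for Acvr1b depended on the second iMSC library and on the scaling. Without that library it was 0.35 (edgeR adjusted p = 0.00213, with 57 of 70 genes called), and with TMM scaling over the tested genes it was 0.59 (edgeR adjusted p = 0.0048). Acvrl1 was at 2.68 without that library (edgeR adjusted p = 2.41e-06).

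In iMSCs against Fibs, the cells at the end and the start of the procedure, both receptors fell, in a comparison that called 39 of 70 genes (55.7%). Acvrl1 fell by 1.01 on the log2 scale (SE 0.28, edgeR adjusted p = 0.0230) and Acvr1b by 1.09 (SE 0.18, edgeR adjusted p = 0.00341). The Fib means were 2.02 and 2.13 times as high. Without the third Fib library Acvrl1 did not pass, at -0.70 (edgeR adjusted p = 0.0585, with 24 of 70 genes called). Without the second iMSC library, Acvrl1 was at -0.84 (edgeR adjusted p = 0.0206) and Acvr1b at -0.92 (edgeR adjusted p = 2.03e-05).

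Against BMSCs, the marrow cells that iMSCs were set beside, 0 of 2 receptors passed in iMSCs, while 12 of 70 genes were called (17.1%). Acvrl1 had a log2 fold change of 0.64 (SE 0.21, 95% interval 0.14 to 1.14, edgeR adjusted p = 0.0865, unadjusted 0.0198) and a mean 1.56 times as high in iMSCs. Acvr1b had one of 0.22 (SE 0.17, 95% interval -0.20 to 0.63, edgeR adjusted p = 0.414). With DESeq2 and its own size factors, Acvrl1 passed (adjusted p = 0.00587). Without the second iMSC library both receptors passed, at 0.81 for Acvrl1 and 0.38 for Acvr1b (edgeR adjusted p = 0.00069 each), but then 41 of 70 genes were called (58.6%).

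BMSCs against Fibs compare the primary mesenchymal cells of marrow and skin. Both receptors were lower in BMSCs, in a comparison that called 53 of 70 genes (75.7%). Acvrl1 had a log2 fold change of -1.65 (SE 0.22, edgeR adjusted p = 0.000176), and Acvr1b had one of -1.31 (SE 0.05, edgeR adjusted p = 6.27e-08). The Fib means were 3.14 and 2.47 times as high. Without the third Fib library the log2 fold change of Acvrl1 was -1.34 (edgeR adjusted p = 8.22e-05). Acvrl1 was 11th and Acvr1b 16th of the 70 genes by the size of the change.

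In BMSCs against iPSCs 1 of 2 receptors passed, in a comparison that called 55 of 70 genes (78.6%). Acvrl1 was higher in BMSCs, with a log2 fold change of 1.87 (SE 0.15, edgeR adjusted p = 1.09e-05) and a mean 3.66 times as high. Acvr1b had a log2 fold change of -0.03 (SE 0.06, 95% interval -0.16 to 0.11, edgeR adjusted p = 0.635), the 69th of 70 by size. That sign and call depended on the scaling, since with TMM scaling the value was 0.28 (edgeR adjusted p = 0.00201).

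**Figure D3:**
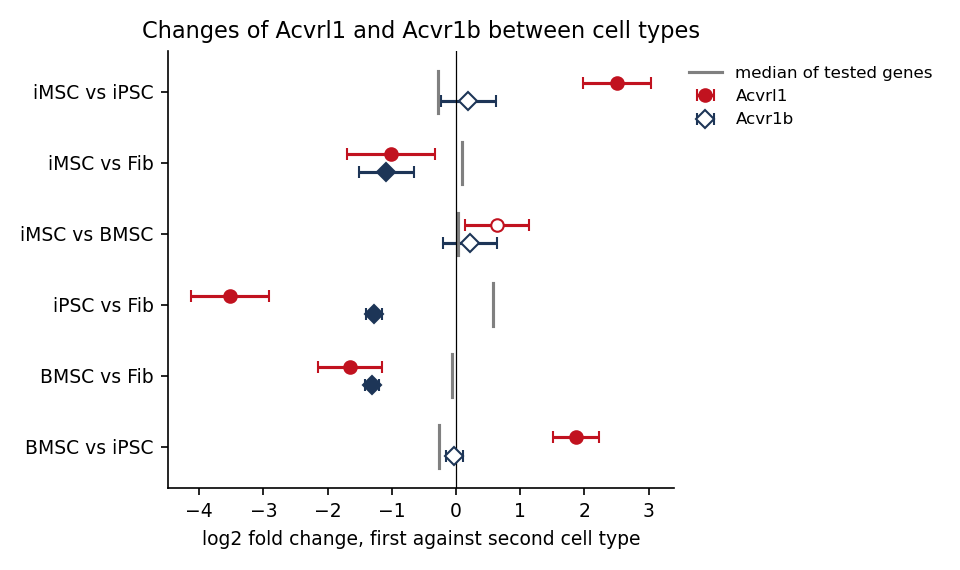
Log2 fold change of Acvrl1 and Acvr1b in the 6 comparisons, first cell type against second, with 95% intervals from edgeR. Filled symbols passed an adjusted p of 0.05, grey bars mark the median of the 70 tested genes, and the Acvr1b values of iMSCs and BMSCs against iPSCs, 0.19 and -0.03 here, were 0.59 and 0.28 and passed with TMM scaling.

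The scaling moved all genes of a comparison together where iPSCs took part. TMM moved the median of the 70 genes by 0.42 for iMSCs against iPSCs, by -0.46 for iPSCs against Fibs and by 0.31 for BMSCs against iPSCs. The called genes split into 19 higher and 34 lower in iMSCs against iPSCs, and into 29 and 26 with TMM. For iPSCs against Fibs the split was 38 higher and 23 lower, and 32 and 30 with TMM, and for BMSCs against iPSCs it was 19 and 36, and 30 and 29 with TMM. The direction of Acvrl1 was the same with TMM, median-ratio and implied-total scaling in all 6 comparisons.

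Of 73 genes in a list of the TGF-β family pathway, 5 were among those analysed. These were the 2 receptors, Cav2 and Tbrg4 as modifiers and genes named for the pathway, and the cartilage regulator Sox9. Of the 21 ligands, 9 type II receptors and co-receptors, 13 inhibitors, 6 Smads and 10 targets on the list, 0 were among the genes analysed, so neither ligand levels nor Smad target genes can be set beside the receptors. Sox9, a transcription factor of chondrocytes, was at 17.5 ± 0.538 FPKM in Fibs, 0.245 ± 0.0505 in iPSCs, 5.22 ± 1.42 in iMSCs and 6.76 ± 0.131 in BMSCs (SD, n = 3 each). Cav2, a caveolin, was at 13.8 ± 1.41, 1.72 ± 0.0828, 5.59 ± 1.32 and 7.57 ± 0.454 FPKM in the same order. Both had their lowest level in iPSCs and their highest in Fibs, as Acvrl1 did. Unlike Acvrl1, both had lower means in iMSCs than in BMSCs, with log2 fold changes of -0.37 for Sox9 and -0.44 for Cav2 (edgeR adjusted p = 0.283 and 0.191). From iPSCs to iMSCs the log2 change was 4.40 for Sox9 and 1.70 for Cav2 (edgeR adjusted p = 4.71e-05 and 0.000858). Without the second iMSC library, the iMSC means of Sox9 and Cav2 were 6.04 and 6.35 FPKM. The log2 change from iPSCs was then 4.61 and 1.88 (edgeR adjusted p = 1.2e-06 and 1.07e-05), and the log2 fold change against BMSCs was -0.16 and -0.25 (edgeR adjusted p = 0.115 and 0.0489), so that Cav2 passed there. Tbrg4, a mitochondrial RNA-binding protein, ran the other way, at 3.97 ± 0.315 FPKM in Fibs, 16.4 ± 0.980 in iPSCs, 9.08 ± 1.81 in iMSCs and 5.23 ± 0.293 in BMSCs. It fell from iPSCs to iMSCs by 0.85 on the log2 scale (edgeR adjusted p = 0.00352), and without the second iMSC library, where its iMSC mean was 8.05 FPKM, by 1.02 (edgeR adjusted p = 3.71e-05).

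The genes whose pattern was most like that of Acvrl1 were found by Pearson's r of log2(FPKM + 1) over the 12 libraries, among the tested genes. The points share cell types and libraries, so r is given as a description. The highest were Scpep1 (0.94), Sox9 (0.94), Tom1l2 (0.93), Cav2 (0.91) and Fgf23 (0.89). The lowest were the RNA-binding protein gene Hnrnpd (-0.97), the respiratory chain gene Cox5a (-0.93) and Hddc2 (-0.93). Hnrnpd was at 52.2 ± 0.278 FPKM in iPSCs, where Acvrl1 was lowest, and at 9.24 ± 0.485 in Fibs, where Acvrl1 was highest (SD, n = 3 each). The means of Tom1l2 kept the order of Acvrl1, at 10.1, 8.76, 7.61 and 2.51 FPKM in Fibs, iMSCs, BMSCs and iPSCs. Their range was narrower. The second iMSC library of Tom1l2, at 7.10 FPKM, lay below the BMSC libraries, at 7.36 to 7.81 FPKM. The means of Scpep1 had the same order, at 212, 165.3, 164.1 and 83.6 FPKM.

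For Acvr1b the highest were the cyclin gene Ccnd2 (0.98), Fgf23 (0.89), the adipocyte regulator Pparg (0.89), the kinase gene Fer (0.80) and Acvrl1 itself (0.76). The lowest were Ndufa9 (-0.96) and Sdhd (-0.95), both of the respiratory chain, and the replication gene Cdc45 (-0.94). Ccnd2 was at 58.7 FPKM in Fibs and at 13.8, 13.1 and 12.9 FPKM in iPSCs, iMSCs and BMSCs, which is the pattern of a high level in Fibs with the others close together. Its second iMSC library was also the lowest of all 12, at 8.30 FPKM. Between the receptors, r was 0.76 over 12 libraries and 0.92 over the 9 libraries other than iPSCs.

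Grasp, the next protein-coding gene after Acvr1b and 10503 bases from its end, was named for its place after its values had been seen. It was at 9.34 ± 0.742 FPKM in Fibs, 7.42 ± 0.513 in iPSCs, 8.75 ± 0.819 in iMSCs and 8.12 ± 0.329 in BMSCs (SD, n = 3 each). It passed in iPSCs against Fibs, with a log2 fold change of -0.33 (edgeR adjusted p = 0.0460), and in 0 of the other 5 comparisons. Its lowest mean stood at 79.5% of the Fib mean, against 8.71% for Acvrl1 and 40.4% for Acvr1b.

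**Figure D4:**
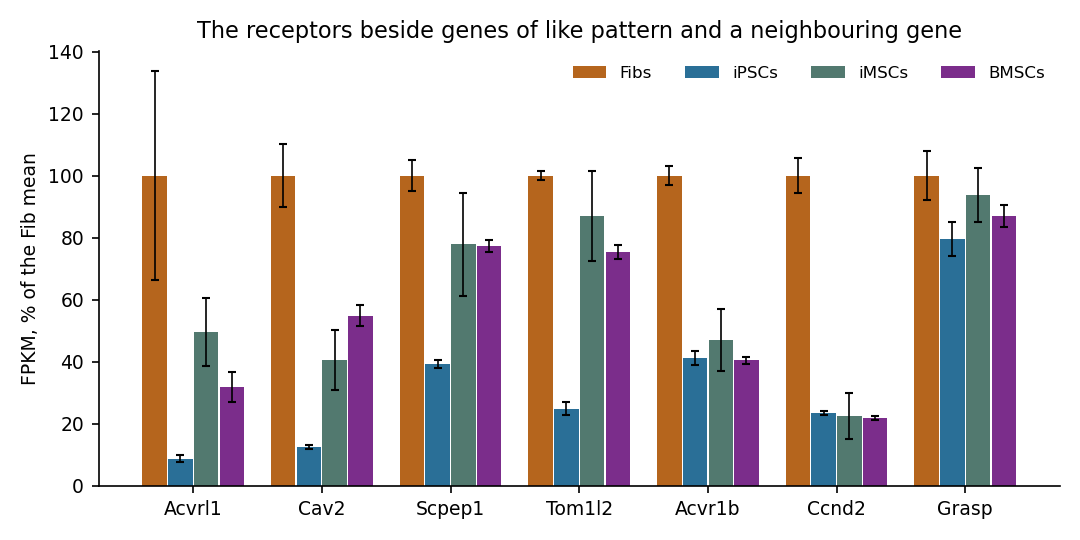
Mean FPKM of each cell type as a percent of the Fib mean, with the SD over 3 cultures, for Acvrl1, 3 genes of like pattern (Cav2, Scpep1 and Tom1l2), Acvr1b, its most similar gene Ccnd2 and the neighbouring gene Grasp. Acvrl1 is at 8.71% in iPSCs and 49.6% in iMSCs, whereas Acvr1b is at 40.4 to 47.1% in iPSCs, iMSCs and BMSCs.

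Markers of other cell types that the cultures could hold were few among the genes analysed. Of 10 endothelial genes 2 were analysed, Bcl6b and Ccm2, and neither is a defining one. Bcl6b was at 5.31 to 5.68 FPKM in iPSCs and at 0 to 0.367 FPKM elsewhere, so that it was highest where Acvrl1 was lowest. Ccm2 was at 8.97 FPKM in Fibs, where Acvrl1 was highest, and at 16.4 FPKM in iMSCs. Their part in the Acvrl1 level was not tested. Of 8 pluripotency genes 1 was analysed, the epithelial cadherin gene Cdh1, at 132 to 143 FPKM in iPSCs and at most 0.672 FPKM in any other library. Of 6 epithelial genes 2 were analysed, Cdh1 and Gpa33, and Gpa33 was at 29.2 to 32.6 FPKM in iPSCs and at most 0.0826 FPKM elsewhere. Of 11 mesenchymal genes 1 was analysed, Itga5, at 79.4, 177 and 83.2 FPKM in the iMSC libraries, so the second library, the lowest of the iMSCs in both receptors, had the highest Itga5. The mean of Itga5 was 37.6 FPKM in Fibs, 57.5 in iPSCs and 62.0 in BMSCs, so it was higher in iPSCs than in Fibs. The leukocyte gene Itgb2, 1 of 6, was at 0.363 to 1.19 FPKM in all 12 libraries. The labels could therefore be checked for iPSCs with Cdh1, and not for the mesenchymal cell types.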

How the data were processed

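Mouse RNA from 4 cell types, with 3 cultures per type, was sequenced as paired ends after oligo-dT selection, with a kit that marks the strand. The submitters' processing notes name cutadapt 1.9, HISAT2 2.0.4, StringTie 1.3.4d, DESeq2, edgeR and mm9, and the study's methods name StringTie with Ballgown for FPKM. In the authors' table, FPKM is corrected for transcript length and sequencing depth. The counts the authors deposited are whole and not normalized, and the sources used here do not say how they were made. Of the 77 counts from 1 to 13, 61 were multiples of 4. The table's coordinates of the receptors equal those of GENCODE M21 on GRCm38 and were not converted.

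Library totals were computed from the ratio of count to FPKM over 7 to 9 genes with a single transcript and at least 500 counts. These estimates differed by at most 0.0924% within a library. The 99 genes hold 0.365 to 0.485% of the totals. edgeR 4.0.16 (quasi-likelihood test, R 4.3.3, Benjamini-Hochberg adjustment) was run on the counts with these totals, with 6 libraries per comparison, on 70 genes that reached an FPKM of 1 in 3 or more libraries. Ratios and F ratios were tested by exact permutation over libraries. The edgeR and permutation steps were tested on simulated data. Motifs and shared runs were searched in RefSeq promoters and GENCODE M21 transcripts. Genes other than the receptors were named as the 5 highest and 3 lowest by Pearson's r with each receptor. Every TGF-β list gene and cell type marker gene analysed was also named, and Grasp as the next protein-coding gene after Acvr1b. The members, lists and tests were chosen with earlier results of these data known. Alternatives were TMM and median-ratio scaling, DESeq2 1.42.0, limma 3.58.1 on log2(FPKM + 1) and with a pseudocount of 0.1, other filters, 1 fit of all 12 libraries, counts divided by 4, a replicate block and leaving out each library.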

Additional observations from a re-analysis of the deposited data

How the results depend on the processing

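Of 306 alternative values for 30 results, 290 kept their direction and their side of the threshold. Those of the ratio between pairs of cell types could change only in direction, since their exact p cannot go below 0.1. For Acvr1b, iMSCs against iPSCs passed with TMM (0.593), with median-ratio scaling (0.5148) and with DESeq2's own size factors (0.5148), and ranged from 0.07984 to 0.355 when 1 library was left out. BMSCs against iPSCs changed sign for Acvr1b with TMM (0.2771), median-ratio scaling (0.1662), DESeq2's own size factors (0.1661) and without the second iPSC library (0.01158, range when 1 library was left out -0.06565 to 0.01158). For Acvr1b in iMSCs against BMSCs that range was 0.1089 to 0.3841. Acvrl1 in iMSCs against BMSCs passed with median-ratio scaling (0.6788), with DESeq2 on the implied totals (0.6378) and with its own size factors (0.6789), with a leave-one-out range of 0.5127 to 0.809. For Acvrl1 in iMSCs against Fibs that range was -1.166 to -0.701. The log2 ratio of iMSCs against Fibs ranged from -0.03607, without the second Fib library, to 0.3609. Leaving out the second iMSC library for Sox9, Cav2 and Tbrg4 was chosen after seeing the data. The cause of the changes was not tested.

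Replicate numbers did not pair the samples: deviations of libraries with the same number correlated at -0.39 to 0.44, and in 0 comparisons was every pair above 0.1. With the replicate block, Acvrl1 in iMSCs against BMSCs was at 0.6247 (edgeR adjusted p = 0.2), and no call of a receptor changed, while the called genes of that comparison went from 12 to 1. There DESeq2 called 18 with the implied totals and 19 with its own size factors, the fit of all 12 libraries called 22, and 41 were called without the second iMSC library. In iMSCs against Fibs 24 genes were called without the third Fib library, against 39. Depth limits Acvrl1 most in iPSCs, at 506 to 619 counts per library.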
